A study of Mus musculus with 16 samples.

Results

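The genes of epidermal cornification and barrier lipid supply were followed in mouse dorsal skin on Affymetrix arrays. The set held 38 named genes: 9 suprabasal or early genes, 13 genes of the cornified envelope, 8 proteases and protease inhibitors, and 8 genes of barrier lipids. Each gene was represented by the probe set of that single symbol with the highest mean over all 16 arrays, and it was kept when that value lay above log2 4 in 2 or more arrays. This kept 36 of the 38 genes, among 12082 genes kept of 18194 with a probe set. Krt2, a keratin of late suprabasal cells, passed 4 in 1 array only (range 1.88 to 4.32), and Lipn, an epidermal lipase, in 0 arrays (highest value 2.24), so neither was tested. All values are log2 values, and the level of one gene's probe set cannot be set against that of another.

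The skin came from inbred mice, all female and 8.5 weeks old at the first biopsy. Their strain is given as C57/B6 in some labels and as C57/B7 in the titles. Each of 9 mice gave a biopsy at day 0 before any treatment (n = 9). After 4 days of daily topical application, a second biopsy at day 5 was arrayed from mice given the vehicle dimethyl sulfoxide (DMSO, mice 2 and 3, n = 2), ruxolitinib (mice 4 and 6, n = 2) or tofacitinib (mice 7, 8 and 9, n = 3). Both drugs inhibit Janus kinases, the enzymes that relay many cytokine signals to STAT transcription factors, and no dose is given in the sources used here. Whole biopsies were used, so fewer cells of a type and less RNA per cell cannot be told apart. Every day-5 biopsy was the second one of its mouse, so time, the earlier biopsy and the applied solvent cannot be told apart in a comparison with day 0. For mouse 7 at day 5, the description names ruxolitinib whereas the other fields name tofacitinib. It was analysed as tofacitinib.

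Keratinocytes leave the basal layer, switch to the keratins Krt1 and Krt10, and then build a cornified envelope of proteins that transglutaminases cross-link under the plasma membrane. Filaggrin and its relatives pack the keratin filaments and are later broken down by caspase 14 and other proteases, while kallikreins cut the corneodesmosomes so that the outermost cells can be shed. Lipids carried in lamellar bodies, among them very long chain ceramides processed by lipoxygenases and lipases, fill the space between the dead cells and hold water in the skin.

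Of the 36 kept genes, 24 had a promoter window in the RefSeq table (build GRCm38.p6), covering 250 bases before to 50 bases after the annotated start. The 4 stretches below, each the 250 bases before the start, are shown because they belong to a pair of envelope genes of the same complex on chromosome 3 (Flg and Ivl) and to the envelope and protease genes with the largest differences between inhibitor and vehicle skin (Tgm3 and Klk13). They are written 5' to 3' on the strand of the gene, with capitals marking the AP-1 motif (TGANTCA) and the TATA box (TATAAA).
Flg (chr3:93273296-93273545, plus strand): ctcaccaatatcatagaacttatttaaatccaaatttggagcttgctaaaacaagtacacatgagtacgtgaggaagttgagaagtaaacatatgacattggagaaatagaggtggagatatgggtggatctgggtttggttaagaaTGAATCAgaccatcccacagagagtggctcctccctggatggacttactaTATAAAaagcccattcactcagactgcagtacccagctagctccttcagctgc
Ivl (chr3:92573736-92573985, minus strand): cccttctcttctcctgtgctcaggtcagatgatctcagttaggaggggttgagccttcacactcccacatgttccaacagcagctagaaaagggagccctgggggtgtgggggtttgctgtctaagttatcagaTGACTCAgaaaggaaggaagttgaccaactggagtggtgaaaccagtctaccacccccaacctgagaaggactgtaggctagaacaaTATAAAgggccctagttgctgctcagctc
Tgm3 (chr2:130012090-130012339, plus strand): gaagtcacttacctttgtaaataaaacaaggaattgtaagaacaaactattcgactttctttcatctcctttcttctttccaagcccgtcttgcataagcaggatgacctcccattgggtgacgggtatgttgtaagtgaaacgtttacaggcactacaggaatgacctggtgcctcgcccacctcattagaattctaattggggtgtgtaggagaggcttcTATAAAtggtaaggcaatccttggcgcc
Klk13 (chr7:43712317-43712566, plus strand): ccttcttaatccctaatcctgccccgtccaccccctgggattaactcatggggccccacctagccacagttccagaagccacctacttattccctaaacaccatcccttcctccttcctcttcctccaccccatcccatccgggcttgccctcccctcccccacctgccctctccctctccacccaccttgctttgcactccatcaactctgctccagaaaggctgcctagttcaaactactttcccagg
The AP-1 motif began 103 bases before the start in Flg and 116 bases before it in Ivl, and the TATA box lay 53, 29 and 28 bases before the start in Flg, Ivl and Tgm3. Klk13 held none of the motifs searched. Searched on both strands of the full window, the AP-1 motif was found in 3 of the 24 members (Flg, Ivl and Sbsn, 12.5%) against 8.97% of 27025 genes. The TATA box was found in 6 (25%) against 15.7% of all genes. The C/EBP motif TTGCNNCAA was found in 1 member (Lipm, 4.17%) against 2.38%, and the grainyhead-like motif AACNGGTT in 0 members against 2.35%. The 3 genes with an AP-1 motif were not among the members that passed the test against vehicle described further on. Only 6 members that passed had a window, so the motif was in 0 of 6 against 3 of 18 others. These are too few to be compared.

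Arrays were compared on the deposited scale, where the median of an array was 3.75 to 3.94. The 27 control probe sets, which have no mouse target, reached at most 2.43. The number of arrays limits the precision. Differences were tested with limma over all 12082 genes and p-values were adjusted within each comparison (Benjamini-Hochberg). A gene is said to have risen or fallen where the adjusted p lay under 0.05, and errors are standard errors (SE) of the fitted log2 difference.

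In vehicle-treated skin the whole set stood lower than at day 0. With DMSO 28 of the 36 genes fell, 0 rose and 8 did not pass the test, where 28.9% of all genes tested fell and 22.2% rose. The median difference of the 36 genes was -1.12 on the log2 scale against -0.05 over all genes, and all 36 fitted differences lay below 0. The DMSO arrays lay below all day-0 arrays for 26 of the 36 genes, where this held for 29.0% of all genes. With ruxolitinib 7 genes were below day 0 and 4 above it (21.4% and 12.5% of all genes), with a median of -0.21. With tofacitinib 12 genes were below day 0 and 3 above it (27.4% and 22.7% of all genes), with a median of -0.18. The shares of the set that fell and rose with ruxolitinib were thus near those of all genes, as was the share that fell with tofacitinib. Klk13 passed the filter on low values through inhibitor arrays, and without it 3 genes rose with ruxolitinib and 2 with tofacitinib. These 3 comparisons share the same day-0 arrays and are given side by side only.

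Markers of other tissue moved with the same contrast. Skeletal muscle markers rose for 9, 2 and 12 of 16 genes with DMSO, ruxolitinib and tofacitinib, from a list mean of 12.19 to 13.10 at day 0 to 13.32 to 13.44, 13.16 to 13.18 and 13.17 to 13.44. Endothelial markers rose for 7 of 7 in each group, from 2.44 to 4.02 at day 0 to 5.28 to 5.78, 4.86 to 5.29 and 4.71 to 5.57. Fibroblast markers rose for 5, 6 and 6 of 10, from 6.44 to 8.60 to 9.15 to 9.42, 9.59 to 9.76 and 9.40 to 9.90. T cell markers fell for 4 of 4 in each group, from 5.72 to 7.24 to 3.79 to 3.82, 3.29 to 3.77 and 3.32 to 4.19. For 4 of the 7 endothelial genes fewer than 2 day-0 arrays, and for 3 of the 4 T cell genes fewer than 2 day-5 arrays, lay above log2 4, so those genes were kept through the group where they were high. Over all genes 22.2%, 12.5% and 22.7% rose and 28.9%, 21.4% and 27.4% fell with DMSO, ruxolitinib and tofacitinib. The count of muscle genes that rose with ruxolitinib was at that share. By list mean, muscle, endothelial and fibroblast signal was thus higher, and T cell signal lower, in the later biopsies. Adipocyte markers rose for 1, 1 and 2 of 4 genes tested and sebaceous markers fell for 1 of 3 in each group. These lists hold too few genes to be set against the shares of all genes. Keratins and other genes of activated keratinocytes went both ways, with 2, 1 and 3 of 7 rising and 2 falling in each group. The part of these shifts in the member values was not tested. Of the muscle, endothelial, fibroblast, T cell, adipocyte, sebaceous and activated keratinocyte lists, 0 genes passed against DMSO in any inhibitor comparison with limma, where 2 activated keratinocyte genes and at most 1 fibroblast gene were higher at an unadjusted p under 0.05.

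The count for DMSO was 24 without the array of mouse 2 and 20 without that of mouse 3. The count for ruxolitinib fell to 4 genes without the array of mouse 4 or of mouse 6. With each mouse entered as a fixed block (blocked fit) it was 6, all higher: Flg, Ivl, Lce1g, Klk13, Lipk and Abca12. The count for tofacitinib was 6 without the array of mouse 9.

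**Figure D1:**
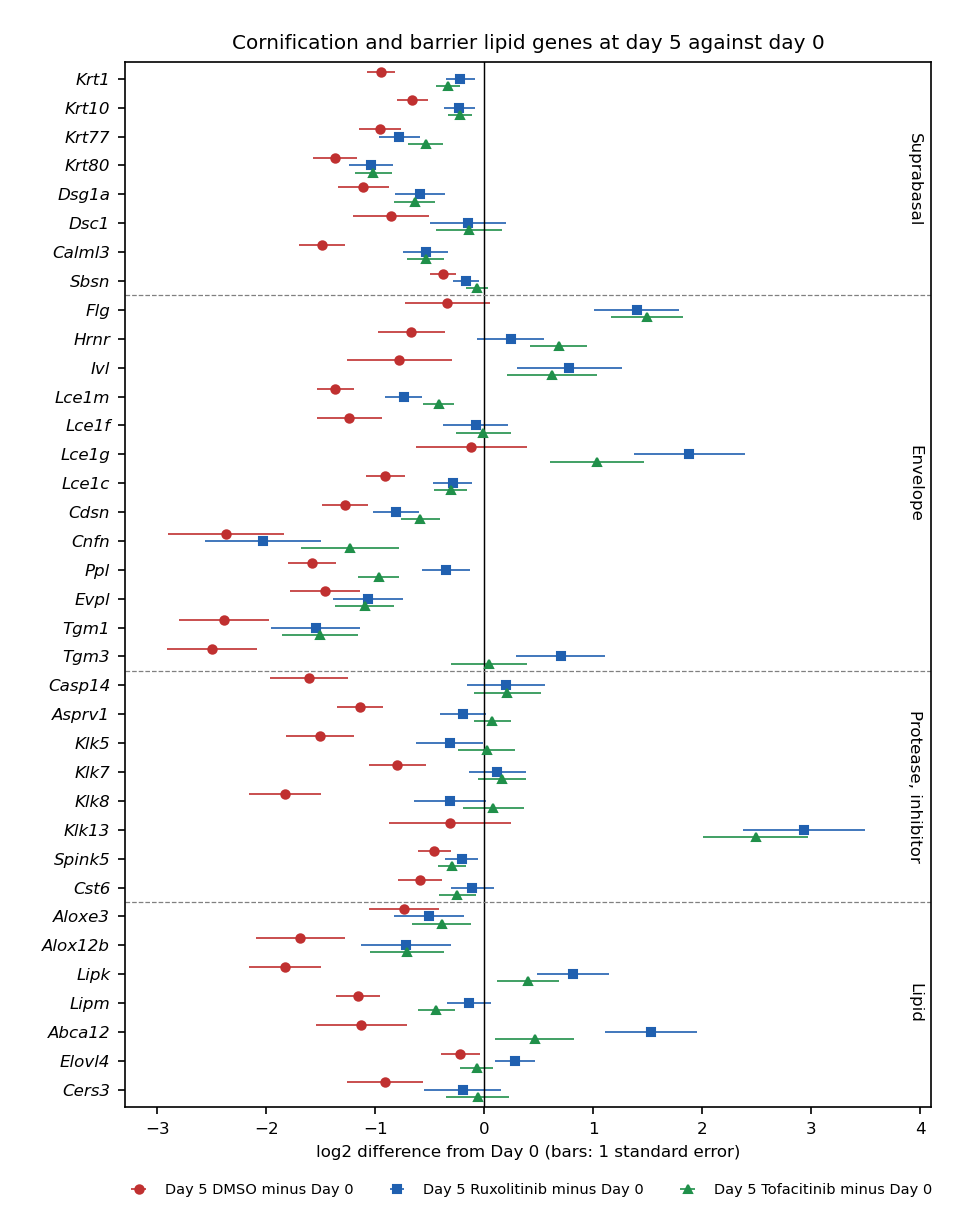
Fitted log2 difference from day 0 (x axis, bars 1 SE) for each of the 36 kept genes, for DMSO (circles, n = 2), ruxolitinib (squares, n = 2) and tofacitinib (triangles, n = 3), each against the same 9 day-0 arrays. All DMSO points lie left of 0, while 11 points lie to the right of 0 with ruxolitinib and 13 with tofacitinib. Several genes lie to the right in both inhibitor groups, among them Flg, Lce1g, Klk13, Abca12, Ivl, Lipk and Tgm3. Of these, Flg and Klk13 passed the test with both inhibitors, Lce1g and Abca12 with ruxolitinib only, and Ivl, Lipk and Tgm3 with neither.

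Among the 8 suprabasal genes 7 fell with DMSO (all but Dsc1), 2 with ruxolitinib and 5 with tofacitinib, and 0 rose. The shares of all genes that fell were 28.9%, 21.4% and 27.4%, so the ruxolitinib count was near its share. Krt80, an epithelial keratin, ranged from 11.83 to 12.45 at day 0 with a median of 12.15. It read 10.68 and 10.88 with DMSO, 11.08 and 11.10 with ruxolitinib, and 11.70, 10.98 and 10.76 with tofacitinib. Every day-5 array lay below every day-0 array. The fitted changes were -1.37 ± 0.20 with DMSO (SE, adjusted p = 0.000105), -1.04 ± 0.20 with ruxolitinib (adjusted p = 0.00128) and -1.02 ± 0.17 with tofacitinib (adjusted p = 0.000303). In the blocked fit the ruxolitinib change was -0.94 and no longer passed (adjusted p = 0.0787).

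Calml3, a calmodulin-like protein of differentiating epithelium, ranged from 10.17 to 10.89 at day 0 (median 10.57). Its values were 9.20 and 8.85 with DMSO, 10.16 and 9.81 with ruxolitinib, and 10.10, 10.30 and 9.57 with tofacitinib. The DMSO arrays were the lowest of all 16, and 1 tofacitinib array lay within the day-0 range. Calml3 fell by 1.49 ± 0.21 with DMSO (adjusted p = 6.31e-05) and by 0.54 ± 0.17 with tofacitinib (adjusted p = 0.0186). The tofacitinib call was lost without mouse 9 (-0.33, adjusted p = 0.195). The ruxolitinib difference was -0.54 ± 0.21 (adjusted p = 0.0548).

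Krt1, the type II keratin of the spinous layer, ranged from 12.42 to 12.79 at day 0 (median 12.65). It stood at 11.86 and 11.47 with DMSO, 12.34 and 12.41 with ruxolitinib, and 12.35, 12.39 and 12.17 with tofacitinib. The DMSO arrays were lowest, and the inhibitor arrays lay between them and the day-0 arrays without touching either. Krt1 fell by 0.95 ± 0.13 with DMSO (adjusted p = 5.59e-05), to 51.6% of its day-0 level. The difference with ruxolitinib was -0.22 ± 0.13 (adjusted p = 0.192). With tofacitinib Krt1 fell by 0.33 ± 0.11 (adjusted p = 0.0228), a call that was lost without mouse 9 (-0.25, adjusted p = 0.141) and in the blocked fit (-0.42, adjusted p = 0.0683).

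Of the remaining suprabasal genes 4 fell with DMSO. Krt10, the partner keratin of Krt1, fell by 0.66 ± 0.14 with DMSO, and Krt77 by 0.96 ± 0.19. The desmosomal cadherin Dsg1a fell by 1.11 ± 0.23, and the secreted suprabasin gene Sbsn by 0.38 ± 0.12 (adjusted p = 0.0178). The falls of Krt10 and Dsg1a did not pass without the DMSO array of mouse 3 (-0.48, adjusted p = 0.0532, and -0.64, adjusted p = 0.0750), nor that of Sbsn without mouse 2 (-0.21, adjusted p = 0.326). The Sbsn fall was also lost in the blocked fit (-0.29, adjusted p = 0.198). Dsc1, a second desmosomal cadherin, differed by -0.86 ± 0.35 with DMSO and did not pass (adjusted p = 0.0529). With the inhibitors, Krt77 fell by 0.78 ± 0.19 (ruxolitinib) and 0.54 ± 0.16 (tofacitinib), and Dsg1a by 0.64 ± 0.19 with tofacitinib. These calls were lost without the ruxolitinib array of mouse 4 (Krt77, -0.64), and for tofacitinib without mouse 8 (Krt77, -0.49) or mouse 9 (Krt77, -0.43, and Dsg1a, -0.41). The ruxolitinib call of Krt77 was also lost in the blocked fit (-0.61, adjusted p = 0.180).

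The 13 envelope genes differed among themselves. With DMSO 9 fell and 4 did not pass (Flg, Hrnr, Ivl and Lce1g). With ruxolitinib 5 fell and 2 rose, and with tofacitinib 6 fell and 2 rose. Of all genes, 28.9%, 21.4% and 27.4% fell and 22.2%, 12.5% and 22.7% rose with DMSO, ruxolitinib and tofacitinib. The 2 of 13 that rose were thus near the share with ruxolitinib and below it with tofacitinib. Lce1m, Cdsn, Cnfn, Evpl and Tgm1 fell in every day-5 group, and Ppl fell with DMSO and with tofacitinib.

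Tgm1, the membrane-bound transglutaminase of the envelope, ranged from 7.97 to 9.79 at day 0 (median 8.98). It was 6.95 and 6.05 with DMSO, 7.11 and 7.51 with ruxolitinib, and 7.90, 7.19 and 7.26 with tofacitinib. Every day-5 array lay below the lowest day-0 array. Tgm1 fell by 2.39 ± 0.41 with DMSO (adjusted p = 0.000326), by 1.55 ± 0.41 with ruxolitinib (adjusted p = 0.00949) and by 1.51 ± 0.35 with tofacitinib (adjusted p = 0.00267). The ruxolitinib fall did not pass without mouse 4 (-1.40, adjusted p = 0.10), without mouse 6 (-1.64, adjusted p = 0.0646) or in the blocked fit (-1.17, adjusted p = 0.134).

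Tgm3, the soluble transglutaminase of the granular layer and hair follicle, showed another order. At day 0 it ranged from 5.55 to 7.54 (median 6.27), and with DMSO it read 4.11 and 3.61. It was 7.03 and 6.95 with ruxolitinib, and 6.33, 6.89 and 5.93 with tofacitinib. All inhibitor arrays fell inside the day-0 range, and both DMSO arrays lay below it. Tgm3 fell by 2.50 ± 0.41 with DMSO (adjusted p = 0.000233). Its differences from day 0 were 0.70 ± 0.41 with ruxolitinib (adjusted p = 0.197) and 0.04 ± 0.35 with tofacitinib (adjusted p = 0.936).

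Lce1m, a late cornified envelope gene, ranged from 12.55 to 13.13 at day 0 (median 13.01). Its values were 11.57 and 11.53 with DMSO, 11.95 and 12.40 with ruxolitinib, and 12.65, 12.63 and 12.29 with tofacitinib. The DMSO arrays were lowest, the ruxolitinib arrays lay below all day-0 arrays, and the tofacitinib arrays reached into the day-0 range. Lce1m fell by 1.37 ± 0.17 with DMSO (adjusted p = 2.13e-05), 0.74 ± 0.17 with ruxolitinib (adjusted p = 0.00352) and 0.42 ± 0.14 with tofacitinib (adjusted p = 0.0238). The last call was lost without mouse 9 (-0.29), and the ruxolitinib call without mouse 4 (-0.54) and in the blocked fit (-0.68, adjusted p = 0.0683). The late cornified envelope genes are a family of related genes, and their probe sets may share signal, which was not tested.

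Ppl, the plakin periplakin, ranged from 10.28 to 11.12 at day 0 (median 10.67). It read 9.04 and 9.28 with DMSO, 10.15 and 10.57 with ruxolitinib, and 10.19, 9.67 and 9.50 with tofacitinib. The DMSO and tofacitinib arrays lay below all day-0 arrays, and 1 ruxolitinib array lay within them. Ppl fell by 1.58 ± 0.22 with DMSO (adjusted p = 7.16e-05) and by 0.97 ± 0.19 with tofacitinib (adjusted p = 0.000888), and differed by -0.35 ± 0.22 with ruxolitinib (adjusted p = 0.229). Its partner Evpl, envoplakin, fell by 1.46 ± 0.32, 1.07 ± 0.32 and 1.10 ± 0.27 with DMSO, ruxolitinib and tofacitinib. The DMSO and ruxolitinib falls of Evpl were lost in the blocked fit (-1.28, adjusted p = 0.0904, and -0.96, adjusted p = 0.246), and the ruxolitinib fall without mouse 4 (-1.24) or mouse 6 (-0.89).

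Flg encodes filaggrin, and its values are given in full although it was chosen after they were seen. At day 0 it ranged from 8.86 to 10.79 (median 9.55), the highest array being that of mouse 1. With DMSO it was 9.86 and 8.65. With ruxolitinib it was 10.86 and 11.05, and with tofacitinib 10.64, 11.80 and 10.88. Both ruxolitinib arrays lay above every day-0 array, and 1 tofacitinib array lay just under the array of mouse 1. Flg rose by 1.40 ± 0.39 with ruxolitinib (2.65-fold, adjusted p = 0.0133) and by 1.49 ± 0.33 with tofacitinib (2.82-fold, adjusted p = 0.00225), and differed by -0.34 ± 0.39 with DMSO (adjusted p = 0.486). The ruxolitinib rise was lost without mouse 4 (1.5, adjusted p = 0.0688) or mouse 6 (1.37, adjusted p = 0.104).

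Among the remaining envelope genes, Lce1g rose with ruxolitinib by 1.88 ± 0.51 (adjusted p = 0.0110) and differed by 1.03 ± 0.43 with tofacitinib (adjusted p = 0.0594). It lay above 4 in 8 of 16 arrays, and its ruxolitinib call was lost without mouse 6 (1.46, adjusted p = 0.166). Hrnr, the filaggrin-like hornerin, rose by 0.68 ± 0.26 with tofacitinib at an adjusted p of 0.0446. It did not pass without any one of the 3 tofacitinib arrays (0.56, 0.57 and 0.86 without mouse 7, 8 and 9), nor in the blocked fit (0.38, adjusted p = 0.172). The Hrnr call was also lost without either ruxolitinib array (0.66 in both cases) and without the day-0 array of mouse 2, 3, 4, 5, 6 or 7 (0.60 to 0.69).

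Ivl, the envelope precursor involucrin, showed differences of 0.78 ± 0.48 and 0.62 ± 0.41 with ruxolitinib and tofacitinib that did not pass, and its second probe set gave -0.49 and 0.37. Cnfn, cornifelin, had a large fall, by 2.37 ± 0.53 with DMSO and 2.03 ± 0.53 with ruxolitinib. Its tofacitinib fall of 1.23 ± 0.45 (adjusted p = 0.0352) did not pass without mouse 9 (-0.67, adjusted p = 0.306), without mouse 8, without either DMSO array or without the day-0 array of mouse 3, 8 or 9 (-1.37 to -1.03). The ruxolitinib fall of Cnfn was lost without mouse 4 (-2.21), without mouse 6 (-1.82) and in the blocked fit (-1.78, adjusted p = 0.106).

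Cdsn, the corneodesmosome protein corneodesmosin, fell by 1.28 ± 0.21 with DMSO, 0.81 ± 0.21 with ruxolitinib and 0.59 ± 0.18 with tofacitinib. The latter 2 falls were lost without mouse 6 (-0.71) and mouse 9 (-0.32) respectively, and the ruxolitinib fall in the blocked fit (-0.80, adjusted p = 0.0625). Lce1f and Lce1c fell with DMSO, by 1.24 ± 0.30 and 0.91 ± 0.18. Lce1f did not pass without mouse 3 (-0.91, adjusted p = 0.0922).

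**Figure D2:**
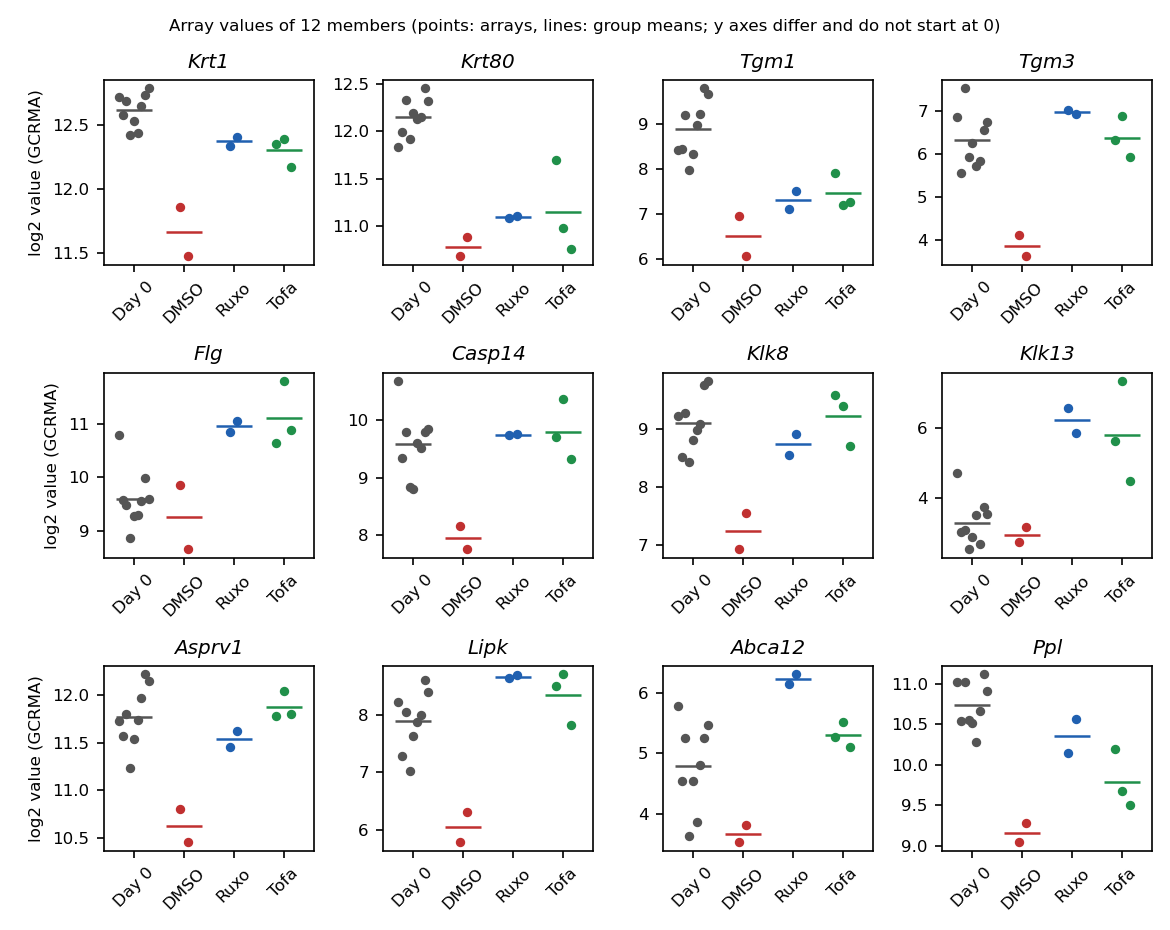
Log2 value of 12 genes in each array (points) with group means (lines) for day 0 (n = 9) and, at day 5, DMSO (n = 2), ruxolitinib (Ruxo, n = 2) and tofacitinib (Tofa, n = 3); the y axes differ between panels and do not start at 0. The DMSO points are below every inhibitor point in 11 of the 12 panels, the exception being Krt80, and Klk13 and Flg stand highest with the inhibitors.

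Of the 8 proteases and protease inhibitors 7 fell with DMSO. With either Janus kinase inhibitor 0 fell and 1 passed as higher, the kallikrein Klk13. Of all genes, 28.9%, 21.4% and 27.4% fell with DMSO, ruxolitinib and tofacitinib, and 12.5% and 22.7% rose with ruxolitinib and tofacitinib. The 1 higher gene of 8 was thus no more than those shares, and Klk13 was kept only through inhibitor arrays. In the blocked fit the kallikrein inhibitor Spink5 also fell with tofacitinib (-0.45, adjusted p = 0.0318), where the difference was otherwise -0.30 ± 0.13 (adjusted p = 0.0600). Klk8, a serine protease of the granular layer, ranged from 8.43 to 9.82 at day 0 (median 9.08). It was 6.93 and 7.56 with DMSO, 8.55 and 8.92 with ruxolitinib, and 9.58, 9.39 and 8.70 with tofacitinib. All inhibitor arrays lay within the day-0 range and both DMSO arrays below it. Klk8 fell by 1.83 ± 0.33 with DMSO (adjusted p = 0.000477) and differed by -0.32 ± 0.33 and 0.08 ± 0.28 with ruxolitinib and tofacitinib (adjusted p = 0.457 and 0.825).

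Asprv1, an aspartic protease that processes profilaggrin, ranged from 11.23 to 12.22 at day 0 (median 11.74). Its values were 10.80 and 10.45 with DMSO, 11.46 and 11.62 with ruxolitinib, and 11.78, 12.05 and 11.80 with tofacitinib. The same order held, with the DMSO arrays below all others. Asprv1 fell by 1.14 ± 0.21 with DMSO (adjusted p = 0.000499), and the differences were -0.20 ± 0.21 and 0.07 ± 0.17 with ruxolitinib and tofacitinib.

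Casp14, the caspase of cornification, is given in full although it was chosen after its values were seen. It ranged from 8.81 to 10.67 at day 0 (median 9.61), and read 8.17 and 7.76 with DMSO. It was 9.74 and 9.75 with ruxolitinib, and 9.70, 10.37 and 9.33 with tofacitinib. Only the DMSO arrays left the day-0 range, and Casp14 fell there by 1.61 ± 0.36 (adjusted p = 0.00239).

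Klk13, another kallikrein, stood above day 0 with both drugs. At day 0 it ranged from 2.55 to 4.70 (median 3.10), the highest value again coming from mouse 1, and with DMSO it was 2.76 and 3.17. With ruxolitinib it was 6.57 and 5.85, and with tofacitinib 5.61, 7.31 and 4.49. Both ruxolitinib arrays lay above all day-0 arrays, and the lowest tofacitinib array lay just under the array of mouse 1. Klk13 lay above log2 4 in 6 arrays, of which 5 were inhibitor arrays, so it was kept for the tests only through the groups where it was high. The fitted differences from day 0 were 2.93 ± 0.56 with ruxolitinib (adjusted p = 0.00127), 2.49 ± 0.48 with tofacitinib (adjusted p = 0.000808) and -0.32 ± 0.56 with DMSO. Both inhibitor differences also passed when no gene was filtered out (2.91 and 2.49). No fold is given, since the day-0 and DMSO values lie near the level of the control probe sets.

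The kallikreins Klk5 and Klk7 fell with DMSO by 1.51 ± 0.31 and 0.80 ± 0.26. Their differences from day 0 lay between -0.32 and 0.16 with the inhibitors and did not pass. The protease inhibitor genes had smaller differences: Spink5, a kallikrein inhibitor, fell by 0.46 ± 0.15 and Cst6, a cystatin, by 0.59 ± 0.20 with DMSO. Klk7 and Cst6 did not pass without mouse 2 (-0.69 and -0.49) or mouse 3 (-0.95 and -0.72), and Spink5 not without mouse 3 (-0.29). In the blocked fit the 3 falls were -0.62, -0.51 and -0.48 for Klk7, Cst6 and Spink5, with adjusted p of 0.0909, 0.154 and 0.0546.

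Of the 7 lipid genes, 5 fell with DMSO, 0 fell and 1 rose with ruxolitinib, and 1 fell with tofacitinib. The shares of all genes that fell were 28.9%, 21.4% and 27.4%, and 12.5% rose with ruxolitinib. The 1 gene of 7 that rose was thus near its share. Lipk, an acid lipase of the epidermis, ranged from 7.02 to 8.61 at day 0 (median 8.01). It was 5.78 and 6.31 with DMSO, 8.64 and 8.70 with ruxolitinib, and 8.51, 8.71 and 7.82 with tofacitinib. The DMSO arrays lay below every day-0 array, and both ruxolitinib arrays and 1 tofacitinib array lay just above them. Lipk fell by 1.83 ± 0.33 with DMSO (adjusted p = 0.000543), whereas its differences with ruxolitinib, 0.81 ± 0.33, and tofacitinib, 0.40 ± 0.28, did not pass (adjusted p = 0.0738 and 0.254).

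Lipm, a second lipase of the same cluster, ranged from 11.47 to 12.26 at day 0 (median 11.71). It read 10.63 and 10.61 with DMSO, 11.38 and 11.84 with ruxolitinib, and 11.31, 11.54 and 11.16 with tofacitinib. The DMSO arrays were the lowest, and the other groups overlapped. Lipm fell by 1.16 ± 0.20 with DMSO (adjusted p = 0.000357) and by 0.44 ± 0.17 with tofacitinib (adjusted p = 0.0405). The tofacitinib call was lost without mouse 7 (-0.46) or mouse 9 (-0.35, adjusted p = 0.197), without either DMSO array (-0.44), without the day-0 array of mouse 3, 8 or 9 (-0.42 to -0.41) and in the blocked fit (-0.50, adjusted p = 0.0589). The ruxolitinib difference was -0.14 ± 0.20.

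Abca12, the transporter that loads lipids into lamellar bodies, ranged from 3.64 to 5.78 at day 0 (median 4.81). Its values were 3.53 and 3.81 with DMSO, 6.14 and 6.30 with ruxolitinib, and 5.26, 5.52 and 5.10 with tofacitinib. The ruxolitinib arrays were the highest of all, the tofacitinib arrays lay within the day-0 range, and 1 DMSO array lay below that range and 1 at its lower end. Abca12 rose by 1.53 ± 0.42 with ruxolitinib (adjusted p = 0.0120), differed by 0.46 ± 0.36 with tofacitinib and fell by 1.13 ± 0.42 with DMSO (adjusted p = 0.0353). The fall was lost without either DMSO array (-0.97 and -1.27 without mouse 2 and 3) and without the day-0 array of mouse 3 (-1.06) or mouse 8 (-1.08). The rise was lost without either ruxolitinib array (1.65 and 1.53 without mouse 4 and 6).

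The lipoxygenase gene Alox12b fell by 1.69 ± 0.41 with DMSO. Its difference with tofacitinib was -0.71 ± 0.34 (adjusted p = 0.0967), and in the blocked fit it fell there by 1.35 (adjusted p = 0.0151). The 3 tofacitinib mice differed by -0.44, -1.63 and -1.97 from their own day 0. Its partner Aloxe3 differed by -0.74 ± 0.32 (adjusted p = 0.0664). Cers3, a ceramide synthase for very long chains, fell by 0.91 ± 0.35 with DMSO (adjusted p = 0.0386). That call was lost without either DMSO array (-1.05 and -0.79 without mouse 2 and 3) and without the day-0 array of mouse 1, 2, 3, 7 or 9 (-0.93 to -0.87). Elovl4, an elongase of very long fatty acids, did not pass in any of the 3 comparisons with day 0 (-0.22, 0.28 and -0.07 with DMSO, ruxolitinib and tofacitinib).

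The set was next compared between inhibitor and vehicle skin at day 5. Against DMSO, all 36 fitted differences were above 0 with ruxolitinib (median 0.87), with tofacitinib (median 0.91) and for the mean of both inhibitors (median 0.86, against 0.01 over all genes). All 3 comparisons share the same 2 DMSO arrays. Few single genes passed. For the mean of both inhibitors 8 genes rose and 0 fell, where 0.836% of all genes rose and 0.0993% fell, and every inhibitor array lay above both DMSO arrays for 26 of the 36 genes and for 8.72% of all genes. With ruxolitinib 3 rose and 0 fell (0.406% and 0.116% of all genes), and with tofacitinib 1 rose and 0 fell (0.166% and 0.00% of all genes). At an unadjusted p under 0.05, limma gave 23 members higher and 0 lower for the mean of both, where 9.39% of all genes were higher and 4.53% lower. With ruxolitinib 22 were higher and 0 lower (9.77% and 5.92% of all genes), and with tofacitinib 22 and 0 (6.33% and 2.06%). By role, the 8 genes were 1 suprabasal gene, 1 envelope gene, 4 protease genes and 2 lipid genes.

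For the mean of both inhibitors against DMSO, Tgm3 rose by a log2 difference of 2.87 ± 0.45 (adjusted p = 0.00822). The lipase Lipk rose 5.42-fold (2.44 ± 0.37, adjusted p = 0.00822) and the lipid transporter Abca12 by 2.13 ± 0.46 (adjusted p = 0.0462). For Tgm3 and Abca12 no fold is given, since their DMSO values were low (3.53 to 4.11). Smaller rises were those of Casp14 (1.82 ± 0.40, adjusted p = 0.0480), Klk8 (1.71 ± 0.36, adjusted p = 0.0435), Asprv1 (1.07 ± 0.23, adjusted p = 0.0435) and Krt1 (0.68 ± 0.14, adjusted p = 0.0435). Klk13, kept through inhibitor arrays, differed by 3.03 ± 0.62 (adjusted p = 0.0392), a call that was lost when no gene was filtered out (adjusted p = 0.0526). Without Klk13 the count was 7 genes. For all 8 genes each of the 5 inhibitor arrays lay above both DMSO arrays. With ruxolitinib alone, Tgm3 (3.20 ± 0.53, adjusted p = 0.0181), Lipk (2.64 ± 0.44, adjusted p = 0.0179) and Abca12 (2.66 ± 0.55, adjusted p = 0.0453) passed. With tofacitinib alone only Lipk passed (2.23 ± 0.40, adjusted p = 0.0397), and Tgm3 stood at 2.54 ± 0.49 (adjusted p = 0.0506). Flg (1.79 ± 0.43, adjusted p = 0.0664), Lce1m (0.80 ± 0.18, adjusted p = 0.0553) and Calml3 (0.95 ± 0.23, adjusted p = 0.0630) did not pass for the mean of both.

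The calls against DMSO rest on few arrays. In the blocked fit, or with only the compared groups in the fit, 0 genes passed in each of these 3 comparisons. Under the block the differences of the 8 genes for the mean of both inhibitors kept their sign (Tgm3 3.26, Lipk 2.23, Klk13 2.94, Krt1 0.73), with adjusted p from 0.398 to 0.519. Of the 8 calls for the mean of both, 0 were left without the DMSO array of mouse 2 and 1 without that of mouse 3. Without the ruxolitinib arrays of mouse 4 and mouse 6, 2 and 3 genes passed, and without the tofacitinib arrays of mouse 7, 8 and 9, 2, 3 and 15. Leaving out the day-0 arrays of mouse 2, 3, 5, 6, 7 and 8 gave 3, 2, 2, 3, 2 and 5. For ruxolitinib alone, 0 passed without mouse 2 or 3 (DMSO) or mouse 4 or 6 (ruxolitinib), 6 without the tofacitinib array of mouse 7 or 9, and 5 without the day-0 array of mouse 1. For tofacitinib alone, 0 passed without mouse 2 or 3 (DMSO), 4 or 6 (ruxolitinib), 7 or 8 (tofacitinib), or the day-0 array of mouse 5, 6 or 7. It was 8 genes without the tofacitinib array of mouse 9, and 4 and 2 without the day-0 arrays of mouse 1 and mouse 4.

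**Figure D3:**
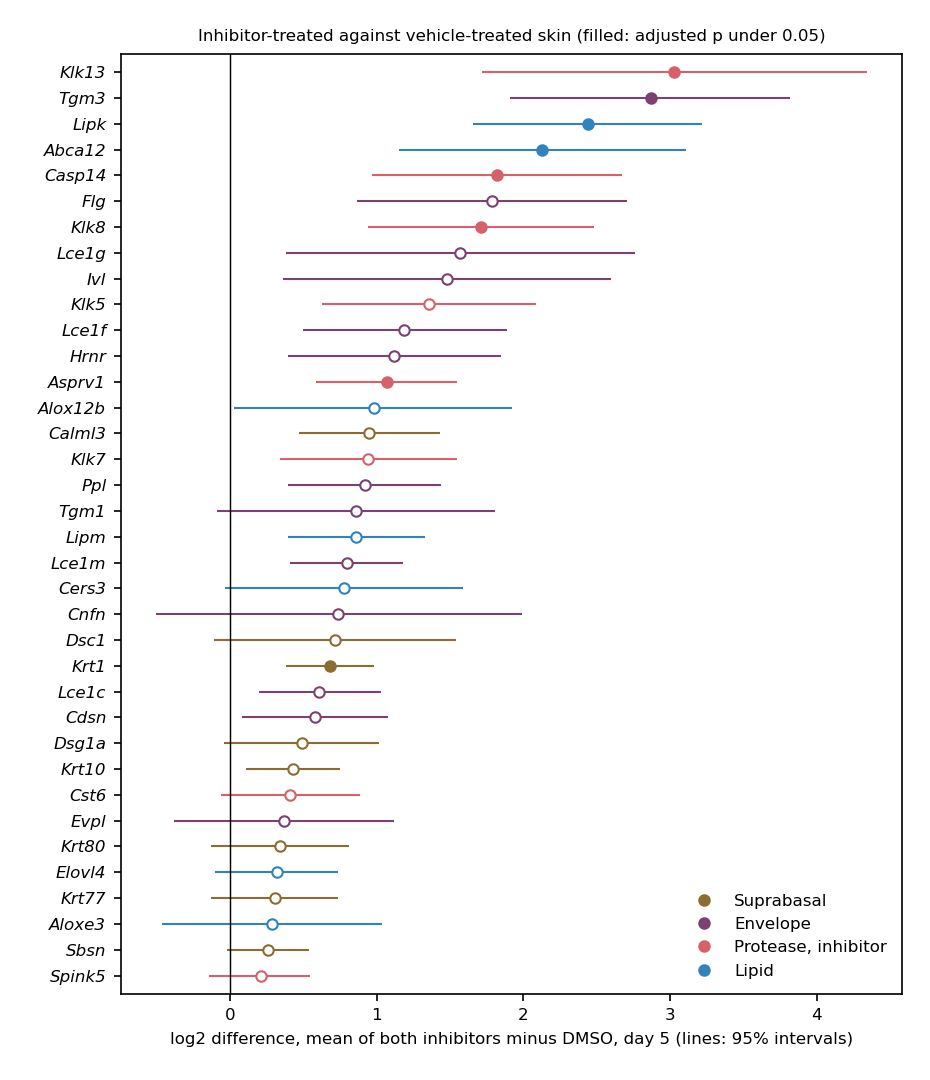
Fitted log2 difference of the mean of both inhibitors (5 arrays) minus DMSO (2 arrays) at day 5 for each of the 36 genes, with 95% intervals (lines), coloured by role and ordered by size; filled points passed at an adjusted p under 0.05. All points lie right of 0, from 0.21 (Spink5) to 3.03 (Klk13), and 8 are filled.

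Ruxolitinib and tofacitinib, which share a pyrrolopyrimidine ring and differ in the groups attached to it, were compared at the same time point with doses not given. Of the 36 genes 0 rose and 0 fell with limma, where 0.00% of all genes were higher and 0.0248% lower with tofacitinib. At an unadjusted p under 0.05, 0 members were higher and 2 lower, Ppl and Abca12, where 2.94% of all genes were higher and 2.73% lower. The median difference, tofacitinib minus ruxolitinib, was 0.01. Abca12 differed by -1.07 (95% interval -2.13 to -0.00, adjusted p = 0.876), and all 3 tofacitinib arrays lay below both ruxolitinib arrays. Ppl differed by -0.62 (interval -1.18 to -0.05), and its groups overlapped by 1 array. For Lipk the interval ran from -1.26 to 0.44 and for Tgm3 from -1.70 to 0.38, so a level higher with ruxolitinib by 1 log2 unit lies inside both intervals. A p that misses the threshold does not show that the drugs act alike.

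Basal keratinocyte markers gave a second reading of the epidermis. Their mean over 11 genes, among them Krt5 and Krt14, was 11.60 at day 0 (11.43 to 11.82). It was 10.76 with DMSO (10.71 to 10.81), 10.80 with ruxolitinib (10.62 to 10.99) and 10.83 with tofacitinib (10.72 to 10.94). The basal level was thus lower at day 5 in every array, with 9, 10 and 10 of 11 genes falling and 1 rising with DMSO, ruxolitinib and tofacitinib, and the 3 day-5 ranges overlapped. Against DMSO 0 of 11 basal genes passed in any inhibitor comparison with limma (1 at an unadjusted p under 0.05 with tofacitinib and for the mean of both, 0 with ruxolitinib). Krt5 fell by 0.73 ± 0.11 and Krt14 by 0.54 ± 0.11 with DMSO.

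The role means were also taken relative to this basal mean in the same array, where only the change of the difference between groups has meaning. For the proteases the difference was -1.66 at day 0, -1.86 with DMSO, -0.63 with ruxolitinib and -0.55 with tofacitinib. For the envelope genes it was -1.76, -2.24, -1.14 and -1.15, and for the lipid genes -2.28, -2.55, -1.37 and -1.60, in the same order of groups. For the suprabasal genes it was 0.53, 0.40, 0.85 and 0.87. Relative to the basal markers, the group means of all 4 roles were thus lowest with DMSO and above day 0 with both drugs. The basal mean itself was lower at day 5. Without it, the suprabasal means were 11.65 and 11.71 with ruxolitinib and tofacitinib against 12.13 at day 0. The envelope means were 9.66 and 9.69 against 9.84, the protease means 10.17 and 10.28 against 9.94, and the lipid means 9.43 and 9.23 against 9.32. All protease means, also those relative to the basal mean, include Klk13, which was kept only through inhibitor arrays. Klk13 differed from day 0 by 2.93 and 2.49, and protease means without it were not computed. The median of the 8 fitted protease differences from day 0 was -0.16 with ruxolitinib and 0.08 with tofacitinib. Relative to the basal mean, the DMSO arrays lay within the day-0 range for the protease genes (-2.08 to -1.30) and the lipid genes (-2.78 to -1.91). They overlapped it for the envelope genes (-2.17 to -1.43) and the suprabasal genes (0.32 to 0.74). For the suprabasal genes, ruxolitinib mouse 6 (0.70) and tofacitinib mouse 9 (0.59) also lay within the day-0 range. Tofacitinib mouse 9 lay within it for the envelope (-1.50) and lipid genes (-1.99) too. The other inhibitor arrays lay above the day-0 range in each role. DMSO and inhibitor arrays did not overlap in this measure for the envelope, protease and lipid genes. For the suprabasal genes the DMSO arrays (0.13 to 0.66) overlapped those of tofacitinib (0.59 to 1.10). These differences were not tested.

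**Figure D4:**
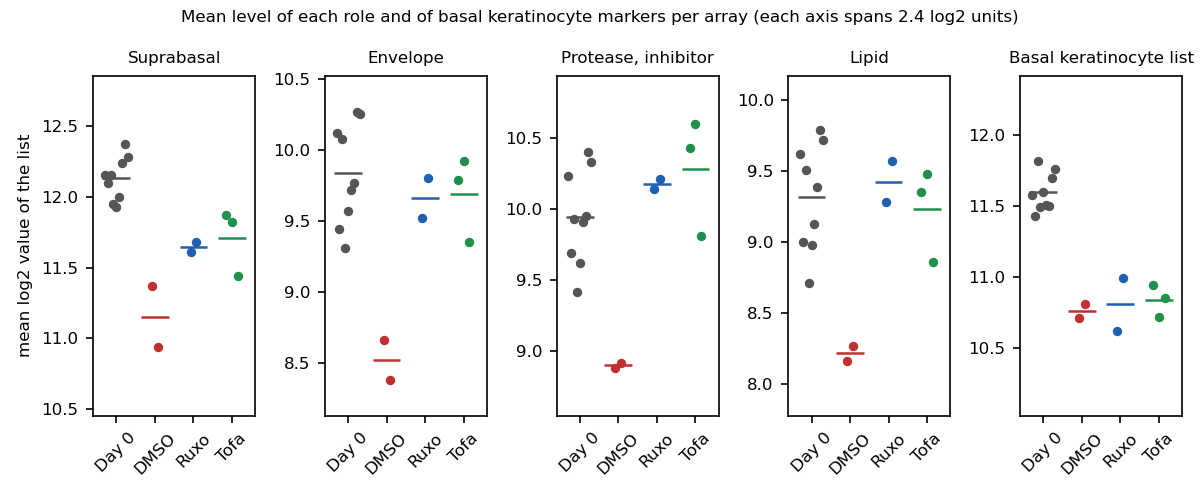
Mean log2 value per array (points) with group means (lines) of the kept genes of each role and of 11 basal keratinocyte markers, for day 0 (n = 9), DMSO (n = 2), ruxolitinib (Ruxo, n = 2) and tofacitinib (Tofa, n = 3); every y axis spans the same number of log2 units and none starts at 0. The inhibitor arrays separate from the DMSO arrays in the 4 member panels, while the basal panel shows all day-5 arrays between 10.62 and 10.99. The protease panel includes Klk13, which was kept only through inhibitor arrays.

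Markers of other skin compartments moved with the inhibitor difference too. All 5 melanocyte markers were called higher for the mean of both inhibitors against DMSO, Tyrp1 by 3.27 ± 0.43. Tyr, with a difference of 2.21 ± 0.27, lay above log2 4 in 3 inhibitor arrays and in 0 others, so it was kept only through them. Their mean was 3.43 to 4.76 at day 0, 3.75 to 4.74 with DMSO, 6.94 to 7.42 with ruxolitinib and 6.35 to 7.81 with tofacitinib. Of 16 hair follicle sheath and shaft markers 6 could be tested, and 2 of these were called higher in the same comparison. One of them, Krt25 (1.84 ± 0.41, adjusted p = 0.0488), lay above log2 4 in 4 inhibitor arrays and in 0 others, so it too was kept only through them. Their mean was 6.42 to 6.74 at day 0, 5.67 to 6.03 with DMSO, 6.76 to 7.34 with ruxolitinib and 6.10 to 7.09 with tofacitinib. The shaft keratins Krt31, Krt33a, Krt34 and Krt35 and the sheath keratins Krt27, Krt71, Krt72 and Krt73 did not pass the filter on low values. Some members, Tgm3 among them, are also expressed in the hair follicle. The part of follicle or pigment cells in the member values was not tested.

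Each day-5 biopsy was also compared with the day-0 biopsy of the same mouse. With DMSO 34 of 36 genes were lower at day 5 than in the same mouse at day 0, in each of mice 2 and 3, with medians of -0.71 and -1.37. With ruxolitinib 18 and 19 genes were lower in mice 4 and 6 (medians 0.01 and -0.04). With tofacitinib 22, 25 and 33 were lower in mice 7, 8 and 9 (medians -0.20, -0.32 and -0.83). By median, mouse 9 thus lay within the range of the DMSO mice, and the other 4 inhibitor mice lay above it. Most suprabasal genes were lower in every mouse: 8 of 8 in all DMSO and tofacitinib mice, and 7 of 8 in both ruxolitinib mice. The share of all genes that was lower in each mouse was not computed, so these counts and medians describe the members only.

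Many of the genes are neighbours. With a gap of at most 2 Mb between genes on 1 chromosome, 22 of the 38 lay in 6 clusters, the largest being 7 genes of the epidermal differentiation complex on chromosome 3 (Ivl, Lce1c, Lce1f, Lce1g, Lce1m, Flg and Hrnr). These 7 differed by 0.61 to 1.79 between the mean of both inhibitors and DMSO (median 1.19), and 0 of 7 passed. Their differences from day 0 ran from -1.37 to -0.12 with DMSO, from -0.74 to 1.88 with ruxolitinib and from -0.42 to 1.49 with tofacitinib. The 4 kallikreins on chromosome 7 differed by 0.94 to 3.03 for the mean of both inhibitors (median 1.54), and Klk13 and Klk8 passed.

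Other genes of the same processes were read from lists of 134 genes, of which 98 were tested. Of these, 46 fell and 8 rose with DMSO, 16 fell and 11 rose with ruxolitinib, and 31 fell and 15 rose with tofacitinib. Over all genes 28.9%, 21.4% and 27.4% fell and 22.2%, 12.5% and 22.7% rose. The share of the lists that fell was thus above that of all genes with DMSO, below it with ruxolitinib and near it with tofacitinib. The share that rose was below that of all genes with DMSO and tofacitinib, and near it with ruxolitinib. For the mean of both inhibitors against DMSO, 6 rose and 0 fell, where 0.836% of all genes rose and 0.0993% fell. The 6 were the envelope genes Kprp, Lce1b, Lce1d, Lce1h and Lce1i, and the regulator Casz1. Their differences ran from 0.86 (Casz1) to 1.86 (Lce1h). With each inhibitor alone 0 of 98 passed against DMSO with limma. At an unadjusted p under 0.05 there were 31 higher and 0 lower with ruxolitinib (9.77% and 5.92% of all genes). With tofacitinib there were 29 higher and 1 lower (6.33% and 2.06% of all genes).

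The lists of other proteases, junction genes and regulators went both ways, and the genes named from them are those with the smallest p. Of 17 other proteases, 6, 4 and 7 fell and 3, 2 and 4 rose with DMSO, ruxolitinib and tofacitinib. In the same order, 7, 3 and 6 of 12 junction genes fell and 1, 2 and 2 rose. For 22 regulators the counts were 10, 5 and 11 falling and 1, 0 and 3 rising. Among the proteases, Prss8, the membrane-anchored prostasin, fell in all groups, by 2.97 ± 0.26 with DMSO, 1.52 ± 0.26 with ruxolitinib and 1.98 ± 0.22 with tofacitinib. Tmprss13, a transmembrane serine protease, fell by 1.94 ± 0.25, 1.18 ± 0.25 and 1.47 ± 0.21 in the same order. Of the junction genes, the plakophilin Pkp3 fell by 1.71 ± 0.18, 1.52 ± 0.18 and 1.32 ± 0.15, and the tight junction gene Cldn1 by 1.05 ± 0.20, 0.81 ± 0.20 and 0.88 ± 0.17. The regulators Notch1, Hopx and Trp63 also fell in all 3 groups, Notch1 by 1.66 ± 0.23, 1.36 ± 0.23 and 1.28 ± 0.19. These genes, like the basal markers, were lower with the inhibitors as well as with DMSO.

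Other envelope genes went in several directions. Sprr1b, a small proline-rich protein of stressed epidermis, rose in all groups, by 4.02 ± 0.78 with DMSO, 3.72 ± 0.78 with ruxolitinib and 3.68 ± 0.66 with tofacitinib. Rptn, the filaggrin relative repetin, rose by 1.60 ± 0.42 (ruxolitinib) and 2.18 ± 0.35 (tofacitinib) and differed by -0.15 ± 0.42 with DMSO, a direction in each group like that of Flg. Lce1l fell by 2.14 ± 0.25, 1.16 ± 0.25 and 0.87 ± 0.22 in the order DMSO, ruxolitinib and tofacitinib. In lipid supply, the elongase Elovl7 rose by 1.60 ± 0.30 and 1.10 ± 0.25 with ruxolitinib and tofacitinib. The desaturase Degs2 differed by 1.34 ± 0.33 and 1.74 ± 0.28, but it lay above log2 4 in 3 inhibitor arrays and in 0 others and was kept only through them. Nipal4, an ichthyosis gene, fell by 1.53 ± 0.22, 1.23 ± 0.22 and 1.26 ± 0.19 with DMSO, ruxolitinib and tofacitinib. Acer1, an alkaline ceramidase, fell by 0.79 ± 0.13 with DMSO and did not pass with the inhibitors (-0.18 and -0.21).

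A total of 8 kept members had more than 1 probe set. The second probe set of Tgm3 gave -1.48 with DMSO against day 0 and 1.47 for the mean of both inhibitors against DMSO, smaller than -2.50 and 2.87 on the first. The second one of Lce1f gave -1.90 and 1.91, larger than -1.24 and 1.19. For Dsc1 the second probe set, with group means of 3.03 to 3.99, gave -0.25 with DMSO but 0.71 with ruxolitinib and 0.60 with tofacitinib, where the first gave -0.15 and -0.14.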

How the data were processed

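RNA from whole mouse skin biopsies was extracted with a column kit, amplified and hybridised to Affymetrix whole-genome mouse arrays, per the labels' protocols. The deposited log2 values were made by the authors with GCRMA, per the submitters' processing notes, with version and settings not given in the sources used here. GCRMA subtracts a background and quantile-normalizes, so low values are compressed and levels are relative to each array.

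Of 45101 probe sets, 34958 had 1 gene symbol in the platform annotation, 932 had several and 9211 were not listed. Each of 18194 genes was represented by its probe set of highest mean, and 12082 genes above log2 4 in 2 or more of 16 arrays were tested. limma 3.58.1 (R 4.3.3) fitted 4 group means to the 16 arrays, the animal being a random block (consensus correlation 0.0983), and variances were moderated with eBayes. Because of this block, fitted differences can depart slightly from differences of plain means. P-values were adjusted by Benjamini-Hochberg over 12082 genes within each of 7 comparisons, and the fit was tested on simulated data. All tests were two-sided.

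Each mouse number marks 1 animal biopsied on both days, so the numbers pair the samples. Deviations from group means of the 7 pairs correlated between -0.183 and 0.178, with 2 of 7 above 0.1. The fixed block is the alternative fit.

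The members and lists were chosen with earlier results of these data known. Values in every sample are given for the 3 genes per role with the smallest p over the 4 groups and for genes called against DMSO (at most 6). Flg and Casp14 were added after their values were seen. From each other pathway list, the 2 genes with the smallest p against day 0 in each group were named. Promoter windows came from RefSeq (GRCm38.p6).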

Additional observations from a re-analysis of the deposited data

Results flagged for a closer look

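In 1 of the 36 sets of 9 day-0 arrays (2.78%), 1 array stood apart from the rest of its group. For Sbsn, the suprabasin gene, mouse 2 read 13.04 at day 0, with the next array at 13.26, a gap of 0.544 of the whole range, above Dixon's 95% limit for 9 values. Chance marks about 1 in 20 such groups.

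Levels at day 5 differed between inhibitor and DMSO skin for 8 genes, tested as the difference between the day-5 groups. In the fit paired by animal 0 of the 8 passed for the mean of both inhibitors (adjusted p from 0.398 to 0.519). With ruxolitinib the difference from DMSO was 3.20 for Tgm3, 2.66 for Abca12 and 2.64 for Lipk, and with tofacitinib it was 2.23 for Lipk. For the mean of both inhibitors it was 3.03 for Klk13, 2.87 for Tgm3, 2.44 for Lipk, 2.13 for Abca12, 1.82 for Casp14, 1.71 for Klk8, 1.07 for Asprv1 and 0.68 for Krt1. All these comparisons share the DMSO arrays of mice 2 and 3.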

How the results depend on the processing

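Every comparison was refitted under 26 alternatives, of which the 9 that each leave out a day-0 array were added after seeing the data. All called members kept their direction in every alternative that held them. Lce1g was missing from 1, the filter at log2 6. Of the calls, 15 of 28 for DMSO against day 0, 1 of 11 for ruxolitinib and 5 of 15 for tofacitinib were kept in each alternative. Against DMSO, 0 of 3, 0 of 1 and 0 of 8 calls (ruxolitinib, tofacitinib, mean of both) were kept in each. For DMSO against day 0 the count of 28 stayed within 1.5 times (19 to 31 genes, 20 to 31 when leaving out 1 array). With the mouse number as a fixed replicate block, the pairing by animal, it was 23. The count for ruxolitinib against day 0, 11, was 6 with the fixed block and ranged from 4 to 13 when leaving out 1 array. The count for tofacitinib against day 0, 15, was 14 with the fixed block, 6 when a log2 difference of at least 1 was also asked for, and 6 to 16 when leaving out 1 array. The 3 comparisons with DMSO gave 0 genes with the fixed block and 0 with only the compared groups. With no filter on low values, tofacitinib gave 0 and the mean of both 3. For ruxolitinib the count was 5 with only the 7 mice that had arrays on both days, and for tofacitinib it was 5 with an intensity trend in eBayes. Leaving out 1 array gave 0 to 6 genes for ruxolitinib, 0 to 8 for tofacitinib and 0 to 15 for the mean of both. Tofacitinib against ruxolitinib gave 0 genes in all 26. Over all genes, the fixed block called 3699 in place of 6175 for DMSO against day 0, and 0 in place of 113 for the mean of both inhibitors. With 2 or 3 arrays per day-5 group and probe sets near the background for Klk13, Lce1g and Abca12, the number of arrays limits what could be called. The cause of the lost calls was not tested.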
